A study of Mus musculus with 16 samples.

Results

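Matricellular proteins are secreted into the extracellular matrix, where they bind cells, growth factors, and proteases more than they bear load. The genes studied here were chosen by name, with earlier results of these data known, and were followed in cultured mouse bone marrow stromal cells: Postn, Mgp, Sparc, Fn1, Thbs1, Thbs2, and Tnc, which are 7 of the 32285 genes counted. All 7 passed the filter on low counts in every cell class tested. They were measured by droplet single-cell RNA sequencing, in which each captured molecule carries a unique molecular identifier (UMI) and is read near its 3′ end.

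The cultures came from adult mice of 4 genotypes and were kept for 21 days in medium with 10 mM β-glycerophosphate, 10% serum, and ascorbic acid. WT mice were Dmp1+/+ Fgf23fl/fl Dmp1-cre-, Fgf23cKO mice were Dmp1+/+ Fgf23fl/fl Dmp1-cre+, Dmp1KO mice were Dmp1-/- Fgf23fl/fl Dmp1-cre-, and Dmp1KO/Fgf23cKO mice were Dmp1-/- Fgf23fl/fl Dmp1-cre+. The floxed Fgf23 allele was thus shared by all groups, the loss of Dmp1 was global, and Cre was driven by the Dmp1 promoter, which is active in mature osteoblasts and osteocytes. Live cells that excluded 7-AAD were tagged with 1 oligonucleotide per culture and pooled by genotype, with 1 droplet reaction per genotype, so a reaction and its genotype cannot be told apart in any comparison here. The genotypes separate the loss of DMP1, an acidic protein of mineralizing bone matrix, from that of FGF23, the phosphate-regulating hormone of osteocytes. Cre was present only in the groups with deleted Fgf23, so the transgene and the deletion cannot be told apart here.

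Periostin (Postn) binds integrins and collagen and marks periosteal and mesenchymal cells. Matrix Gla protein (Mgp) is a vitamin K-dependent inhibitor of calcification. Osteonectin (Sparc) binds collagen and calcium and is abundant in bone, and fibronectin (Fn1) forms the fibrils on which other matrix proteins assemble. Thrombospondin 1 (Thbs1) binds CD36 and CD47 and activates latent TGF-β, thrombospondin 2 (Thbs2) lacks that activating sequence, and tenascin C (Tnc) loosens the adhesion of cells to fibronectin.

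In the mm10 annotation the genes lie on 7 chromosomes. Postn spans chr3:54361109-54391037 on the plus strand and Thbs1 spans chr2:118111876-118127133 on the plus strand. The other five lie on the minus strand, with Mgp at chr6:136872435-136875823, Sparc at chr11:55394500-55423183, Fn1 at chr1:71585520-71653200, Thbs2 at chr17:14665500-14694235, and Tnc at chr4:63959785-64047015.

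The sequences before the start sites of Postn and Tnc are shown because these genes fell together in pre-osteoblast 1-like cells of Fgf23cKO, as described below. Each is 250 bases long and written 5′ to 3′ on the strand of the gene, at chr3:54360857-54361106 (plus strand) for Postn and chr4:64046937-64047186 (minus strand) for Tnc, from RefSeq on GRCm38.p6. Capitals mark a TATATAA match.
Postn: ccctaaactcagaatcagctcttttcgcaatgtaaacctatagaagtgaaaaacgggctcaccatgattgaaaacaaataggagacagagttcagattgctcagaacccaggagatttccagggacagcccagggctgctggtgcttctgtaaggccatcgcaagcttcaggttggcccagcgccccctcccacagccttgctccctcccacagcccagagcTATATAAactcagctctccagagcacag
Tnc: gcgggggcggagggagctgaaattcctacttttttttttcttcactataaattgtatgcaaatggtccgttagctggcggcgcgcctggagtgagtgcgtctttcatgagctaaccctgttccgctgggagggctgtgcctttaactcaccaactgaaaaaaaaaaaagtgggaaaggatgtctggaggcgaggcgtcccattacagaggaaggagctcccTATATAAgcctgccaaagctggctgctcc
TATATAA lay at -28 in Postn and -29 in Tnc, counted from the start site, and was in 3.04% of 32841 promoters of this length on either strand. The motif was chosen after the sequences were seen and the match is a description. It was not found in the windows of Sparc and Thbs2 or in the windows of the upstream start sites of Postn and Tnc. TGANTCA (6.75% of promoters), CATTCC (12.6%), and the CArG box (1.47%) had no match in any window of these 4 genes. Promoter entries were at hand for these 4 of the 7 genes, without Mgp, Fn1, and Thbs1.

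In all, 17793 cells of 15 samples were used, of which 14577 came from 11 tagged cultures and 3216 from 4 samples of untagged cells. Replicate 1 of Dmp1KO was not analysed here, so that Dmp1KO had 2 tagged cultures (replicates 2 and 3) and each other genotype had 3. Tagged cultures held 470 to 2825 cells and 9518928 to 72482185 UMIs, with a median of 7137 to 34988 UMIs per cell, and 35 barcodes were shared between libraries, none within a genotype. Clustering gave 20 clusters. Dmp1 checked the labels in osteoblast/osteocyte-like cells, where its mean was 1028 ± 288 CPM (UMI counts of the gene scaled to 1e6 UMIs of the class, ± SD, n = 3) in WT and 26.2 ± 11.4 CPM (n = 3) in Dmp1KO/Fgf23cKO. In Dmp1KO the gene was at 0 in osteoprogenitor-like, pre-osteoblast 1-like, and macrophage-like cells. The WT means in these classes were 0, 20.5 ± 22.2 (lowest culture 0), and 1.48 ± 0.36 CPM. The osteoprogenitor-like value is thus no check of the Dmp1KO label, and the other classes are a weak one. Fgf23 was at 0 in all stromal classes, also in WT, so that its deletion could not be checked in these cells.

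Stromal classes and macrophages were named from marker genes. Osteoprogenitor-like cells were 1 cluster of 704 cells led by Grem1, Tagln, and Rflnb, and Mgp itself was among the 10 genes that set this cluster apart. Pre-osteoblast 1-like cells were 1 cluster of 425 cells led by Pdzrn4, Ebf1, and Pappa. Osteoblast/osteocyte-like cells were 2 clusters, of 383 cells led by Ibsp, Col11a2, and Slpi and of 152 cells led by Klf12, Col13a1, and Robo2. Macrophage-like cells were 3 clusters with 7222 cells, and different clusters held this class in different genotypes: 1 cluster was 97.8% WT, another was 88.9% Dmp1KO, and the largest share of the third came from Dmp1KO/Fgf23cKO (45.0%). Tagged cells numbered 373 osteoprogenitor-like, 306 pre-osteoblast 1-like, 216 osteoblast/osteocyte-like, and 6473 macrophage-like. Cells were unequal in depth. Untagged cells included, the median by genotype was 1921.5 to 3461.5 UMIs per osteoprogenitor-like cell and 18537 to 111850 UMIs per pre-osteoblast 1-like cell. In tagged cultures, osteoprogenitor-like medians were 1596 to 3257 UMIs in WT, 3648.5 to 6332.5 in Fgf23cKO, 2903 to 3806.5 in Dmp1KO, and 3731 to 6263 in Dmp1KO/Fgf23cKO. The 5 deepest cells of a culture held 28.0% to 76.0% of its osteoprogenitor-like UMIs, 19.2% to 53.9% of its pre-osteoblast 1-like UMIs, and 24.0% to 74.9% of its osteoblast/osteocyte-like UMIs.

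The genes took different places along the stromal classes. Levels below are CPM per tagged culture with at least 10 cells of the class, given as the median and range over cultures of all genotypes, as a description with no test, because the same genes entered the clustering. The order of the classes was the same for 7 of 7 genes when the clusters were made without the matricellular genes and with other settings.

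Among the named stromal classes and macrophage-like cells, Postn was highest in pre-osteoblast 1-like cells, with a median of 1448 CPM (736 to 2035, 11 cultures). Its levels in osteoprogenitor-like cells (median 186, 15.8 to 767 CPM, 11 cultures) and osteoblast/osteocyte-like cells (median 168, 97.5 to 349 CPM, 7 cultures) overlapped throughout. In macrophage-like cells the median was 5.31 CPM. A small cluster of 115 cells led by Tenm3, Epha5, and Acan, which was named from no marker list, had a Postn median of 1529 CPM (1039 to 1765) in 3 cultures, within the range of pre-osteoblast 1-like cells.

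Mgp was highest in osteoprogenitor-like cells, at a median of 1997 CPM (1062 to 4932). Pre-osteoblast 1-like cells followed at 951 CPM (298 to 1495), with ranges that overlapped. The osteoblast/osteocyte-like median was 19.8 CPM (14.8 to 40.5), so that no culture of this class came near the lowest culture of the earlier classes. In the Tenm3-led cluster Mgp was at a median of 5.69 CPM, close to the 5.66 CPM of macrophage-like cells.

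Sparc ran the other way. Its median was 17092 CPM (14920.2 to 21808) in osteoblast/osteocyte-like cells, above every culture of pre-osteoblast 1-like cells (median 4482, 2968 to 8453 CPM) and osteoprogenitor-like cells (median 3561, 1864 to 7962 CPM). The last 2 classes overlapped. Macrophage-like cells had 42.9 CPM (12.03 to 65.0).

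Fn1, Thbs2, and Tnc shared with Postn a maximum in pre-osteoblast 1-like cells. Fn1 had a median of 2897 CPM there (1723 to 4037), against 1135 CPM (127 to 2607) in osteoprogenitor-like cells and 660 CPM (464 to 916) in osteoblast/osteocyte-like cells, and each class overlapped the next. Thbs2 had 624 CPM (480.0 to 1002) in pre-osteoblast 1-like cells, above every osteoprogenitor-like culture (median 169, 0 to 314 CPM) and every osteoblast/osteocyte-like culture (median 71.2, 46.6 to 97.1 CPM). Those other classes overlapped each other.

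Tnc had a median of 1926 CPM (973 to 2879) in pre-osteoblast 1-like cells and 811 CPM (497 to 2295) in osteoblast/osteocyte-like cells, which overlapped. Its osteoprogenitor-like median was 88.8 CPM (30.1 to 415), below every culture of both later classes. Thbs1 fell off more evenly, with 1777 CPM (1284 to 2758) in pre-osteoblast 1-like cells, 1386 CPM (580 to 2140) in osteoblast/osteocyte-like cells, 372 CPM (124 to 1045) in osteoprogenitor-like cells, and 66.1 CPM (25.9 to 133) in macrophage-like cells. Each neighbor in this order overlapped the next, and Thbs1 was the member whose lowest stromal culture did not clear the highest macrophage-like culture, apart from Thbs2, which was at 0 in 1 WT osteoprogenitor-like culture.

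**Figure D1:**
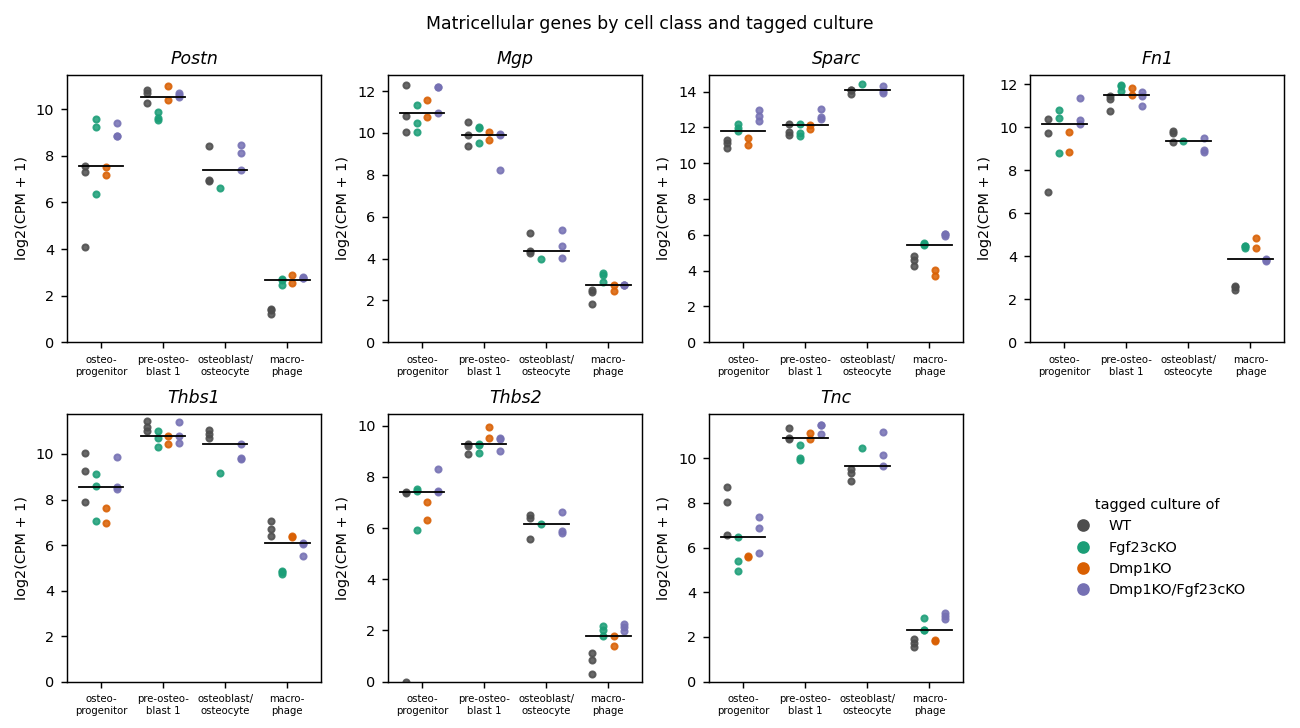
Level of each matricellular gene, as log2(CPM + 1), in 4 cell classes. Points are tagged cultures colored by genotype, with at least 10 cells of the class, and black bars are the medians over cultures; Mgp is highest in osteoprogenitor-like cells, Sparc in osteoblast/osteocyte-like cells, and the other genes in pre-osteoblast 1-like cells.

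The share of cells with a UMI followed the same order when each cell was thinned to 1000 UMIs, with shallower cells left out and untagged cells included. In WT, Postn was found in 46.5% of 127 pre-osteoblast 1-like cells, 7.45% of 94 osteoprogenitor-like cells, and 0.193% of 3102 macrophage-like cells. Mgp was found in 56.4% of WT osteoprogenitor-like cells, 34.6% of pre-osteoblast 1-like cells, and 3.73% of 161 osteoblast/osteocyte-like cells. Thus each gene was detected in part of a class only, except Sparc, which was found in 93.2% of the WT osteoblast/osteocyte-like cells. Without thinning, the WT shares of Postn were 70.9%, 15.8%, and 1.26% in pre-osteoblast 1-like, osteoprogenitor-like, and macrophage-like cells, at median depths of 18537, 1921.5, and 7122 UMIs.

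Most UMIs of 5 genes came from pre-osteoblast 1-like cells in every genotype, although these cells were few. That class held 70.5%, 55.7%, 74.1%, and 84.7% of all Postn UMIs of the tagged cultures in WT, Fgf23cKO, Dmp1KO, and Dmp1KO/Fgf23cKO. For Tnc the shares were 66.7%, 57.9%, 90.2%, and 77.1%, and those of Thbs2, Fn1, and Mgp lay between 62.5% and 90.5%. Sparc differed, since osteoblast/osteocyte-like cells held 78.4% of its UMIs in WT, 63.7% in Fgf23cKO, and 57.0% in Dmp1KO/Fgf23cKO, but 29.3% in Dmp1KO. The Tenm3-led cluster held 32.1% of the Postn UMIs in Fgf23cKO and 14.96% in WT.

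**Figure D2:**
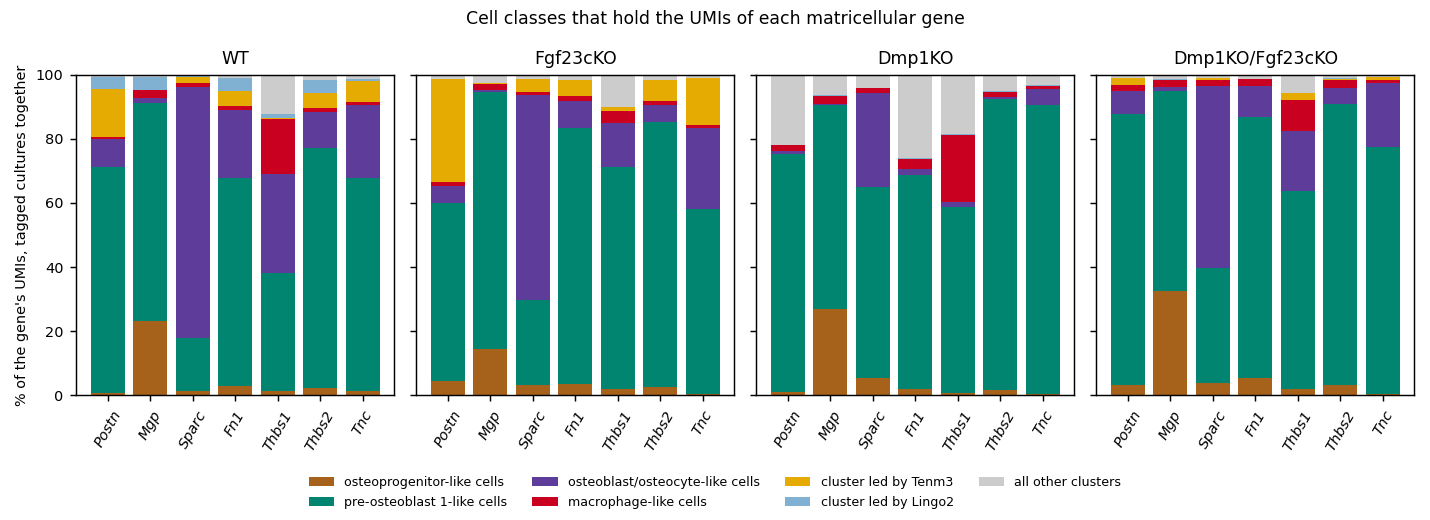
Share of each gene's UMIs, in % of the tagged cultures of a genotype together, that came from each cell class. Pre-osteoblast 1-like cells held 55.7% to 84.7% of the Postn UMIs, and osteoblast/osteocyte-like cells held 29.3% of the Sparc UMIs in Dmp1KO against 78.4% in WT.

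Genotypes were compared within a class by edgeR's quasi-likelihood test on UMIs summed per tagged culture, and a difference was called at an adjusted p (Benjamini-Hochberg, all genes of the class) under 0.1. Fold changes are scaled by TMM, which in osteoprogenitor-like cells raised the log2 fold changes against WT over those from plain library totals by 0.40 in Fgf23cKO, 0.41 in Dmp1KO, and 0.63 in Dmp1KO/Fgf23cKO. All 4 comparisons with WT or Dmp1KO draw on the same cultures, so they are not independent of each other.

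In osteoprogenitor-like cells, 4 of the 7 genes rose in Dmp1KO/Fgf23cKO compared with WT and none fell, against 33.9% of all 4845 genes called in that comparison. Of the 7, 3 were called in Fgf23cKO against WT (17.2% of all genes), 2 in Dmp1KO against WT (12.9%), and 2 in Dmp1KO/Fgf23cKO against Dmp1KO (4.29%). The median log2 fold change of the 7 genes was 1.39 in Dmp1KO/Fgf23cKO against WT, where that of all genes was -0.12. Summed CPM of 12 macrophage markers, with at most 4 of them at 0 in a culture, ranged from 5599 to 16018 in WT, 1986 to 8873 in Fgf23cKO, 3937 to 10933 in Dmp1KO, and 1931 to 6443 in Dmp1KO/Fgf23cKO, and their part in these results was not tested. Each culture held 18 to 65 of these cells and 63118 to 363126 of their UMIs, so some levels below rest on few molecules. The WT cultures together held 38 Postn, 36 Thbs2, and 80 Tnc UMIs. Tnc had 38 UMIs in Fgf23cKO and 31 in Dmp1KO.

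Sparc showed the clearest differences in osteoprogenitor-like cells. Its levels were 2504, 2266, and 1864 CPM in the WT cultures, 3561, 3933, and 4640.3 CPM in Fgf23cKO, 2738 and 2063 CPM in Dmp1KO, and 7962, 5279, and 6297 CPM in Dmp1KO/Fgf23cKO. Every Fgf23cKO and Dmp1KO/Fgf23cKO culture thus lay above every WT and Dmp1KO culture, and every Dmp1KO/Fgf23cKO culture lay above every Fgf23cKO culture. Sparc rose 4.36-fold in Dmp1KO/Fgf23cKO compared with WT (log2 fold change 2.12 ± 0.22 SE, adjusted p = 1.54e-05) and 3.15-fold compared with Dmp1KO (1.66 ± 0.24, adjusted p = 0.00158). It rose 2.31-fold in Fgf23cKO compared with WT (1.21 ± 0.21, adjusted p = 0.00195). In Dmp1KO the difference from WT was 0.47 ± 0.23 with an adjusted p of 0.238. The Fgf23cKO difference was lost when each cell was thinned to 1000 UMIs (0.02, adjusted p = 0.963) and when the 5 deepest cells of each sum were left out (0.26, adjusted p = 0.728). Without those cells the rise over Dmp1KO had an adjusted p of 0.109 (1.54), whereas the rise over WT kept its call in every alternative run. Mean Col1a1 in osteoprogenitor-like cells was 627 ± 648 CPM in WT, 1607 ± 1339 in Fgf23cKO, 248 ± 61 in Dmp1KO, and 1178 ± 108 in Dmp1KO/Fgf23cKO (± SD). Mean Dmp1 there was 0 CPM in WT and 30.1 ± 25.8 CPM in Fgf23cKO. The part of RNA from osteoblast/osteocyte-like cells in the Sparc differences was not tested.

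Postn, Fn1, and Thbs2 rose in Dmp1KO/Fgf23cKO compared with WT. Postn was at 155, 15.8, and 186 CPM in WT, 767, 80.3, and 605 CPM in Fgf23cKO, 145 and 181 CPM in Dmp1KO, and 463, 465, and 666 CPM in Dmp1KO/Fgf23cKO. All Dmp1KO/Fgf23cKO cultures lay above all WT and Dmp1KO cultures, while 1 Fgf23cKO culture lay inside the WT range. The rise of Postn was 5.97-fold in Dmp1KO/Fgf23cKO (2.58 ± 0.59, adjusted p = 0.00574) and 4.82-fold in Fgf23cKO (2.27 ± 0.59, adjusted p = 0.0216), and the comparison of Dmp1KO/Fgf23cKO with Dmp1KO gave 1.89 ± 0.60 (adjusted p = 0.119). Both calls were lost with thinned cells (1.54 with adjusted p = 0.120, and 1.49 with adjusted p = 0.207) and without the 5 deepest cells (1.94 with adjusted p = 0.154, and 1.998 with adjusted p = 0.222). The Fgf23cKO call was also lost with coarser clusters (1.07, adjusted p = 0.129).

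Fn1 was at 859, 127, and 1347 CPM in WT and at 1312, 1135, and 2607 CPM in Dmp1KO/Fgf23cKO, with overlap, and rose 3.08-fold (1.62 ± 0.56, adjusted p = 0.0470). Thbs2 was at 166, 0, and 169 CPM in WT and at 314, 171, and 175 CPM in Dmp1KO/Fgf23cKO, without overlap, and its fitted rise was 1.39 ± 0.55 on the log2 scale (adjusted p = 0.0749). Both results leaned on WT culture 2, the culture with the lowest Fn1 level and no Thbs2 UMI. Without it the adjusted p of Fn1 was 0.133 (1.08) and that of Thbs2 was 0.187 (0.87). The Fn1 call was further lost without Dmp1KO/Fgf23cKO culture 3 (1.14, adjusted p = 0.152), and the Thbs2 call without Dmp1KO/Fgf23cKO culture 1 (1.02, adjusted p = 0.253) or WT culture 3 (1.71, adjusted p = 0.10003). With plain library totals in place of TMM, neither was called (Fn1 0.99 with adjusted p = 0.184, Thbs2 0.77 with adjusted p = 0.290), nor was either without the 5 deepest cells of each sum (1.05 with adjusted p = 0.297, and 1.40 with adjusted p = 0.189). The Fn1 call was lost with DESeq2 (1.54, adjusted p = 0.154) and thinned cells (0.69, adjusted p = 0.322), and the Thbs2 call with clusters made without the matricellular genes (1.32, adjusted p = 0.168). In Fgf23cKO the log2 fold changes from WT were 0.93 for Fn1 (adjusted p = 0.291) and 0.58 for Thbs2 (adjusted p = 0.536).

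Tnc, in contrast, fell in both single mutants. It was at 259, 95.1, and 415 CPM in WT, 41.5, 30.1, and 88.8 CPM in Fgf23cKO, 46.1 and 48.0 CPM in Dmp1KO, and 164, 52.3, and 118 CPM in Dmp1KO/Fgf23cKO. All Fgf23cKO and Dmp1KO cultures lay below all WT cultures, and the Dmp1KO/Fgf23cKO cultures spanned both. Tnc fell by 1.93 ± 0.54 on the log2 scale in Fgf23cKO (3.80-fold, adjusted p = 0.0308) and by 2.14 ± 0.59 in Dmp1KO (4.41-fold, adjusted p = 0.0361). In Dmp1KO/Fgf23cKO it differed by -0.71 from WT (adjusted p = 0.291) and by 1.43 from Dmp1KO (adjusted p = 0.226). The difference of Dmp1-cre+ from Dmp1-cre- cultures was thus -1.93 in Dmp1+/+ and 1.43 in Dmp1-/- cells. These values differed by 3.36 ± 0.79 on the log2 scale (adjusted p = 0.0403). Tnc was the single member called for this difference of differences in the class, where 3.84% of all genes were called. The Fgf23cKO call was lost without WT culture 3 (-1.44, adjusted p = 0.154), without Fgf23cKO culture 1 (-1.66, adjusted p = 0.103), and without the 5 deepest cells (-1.40, adjusted p = 0.180). The Dmp1KO call was lost without WT culture 3 (-1.64, adjusted p = 0.160), without either Dmp1KO culture (adjusted p = 0.172 and 0.231), and with coarser clusters (-0.46, adjusted p = 0.506). The difference of differences was lost without WT culture 3 (2.85, adjusted p = 0.107), Dmp1KO culture 3 (3.44, adjusted p = 0.198), or Dmp1KO/Fgf23cKO culture 1 (2.92, adjusted p = 0.108), with coarser clusters (1.79, adjusted p = 0.163), and without the 5 deepest cells (1.82, adjusted p = 0.276).

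Thbs1 was lowest in Dmp1KO, at 194 and 124 CPM, against 1045, 238, and 610.1 CPM in WT, 385, 130.4, and 558 CPM in Fgf23cKO, and 929, 372, and 356 CPM in Dmp1KO/Fgf23cKO. The Dmp1KO cultures did not overlap those of WT or Dmp1KO/Fgf23cKO. Thbs1 fell by 1.68 ± 0.59 on the log2 scale in Dmp1KO compared with WT (adjusted p = 0.0946), and it was 4.06-fold higher in Dmp1KO/Fgf23cKO than in Dmp1KO (2.02 ± 0.59, adjusted p = 0.0852). Neither call was stable. The rise was 0.76 (adjusted p = 0.555) with thinned cells and 0.73 (adjusted p = 0.639) without the 5 deepest cells, and with the replicate number of the cultures as a block the fall was -1.08 (adjusted p = 0.235) and the rise 1.49 (adjusted p = 0.157). Both were also lost with coarser clusters (adjusted p = 0.117 and 0.129) and with clusters made without the matricellular genes (0.125 and 0.186). The fall was lost without WT culture 1 (-1.16, adjusted p = 0.296), WT culture 3 (-1.76, adjusted p = 0.152), Dmp1KO culture 2 (-1.81, adjusted p = 0.208), Dmp1KO culture 3 (-1.40, adjusted p = 0.478), or Dmp1KO/Fgf23cKO culture 2 (-1.68, adjusted p = 0.106). The rise was lost without WT culture 3 (1.996, adjusted p = 0.113), either Dmp1KO culture (2.35 and 1.86, adjusted p = 0.309 and 0.312), Dmp1KO/Fgf23cKO culture 1 (1.38, adjusted p = 0.314), or culture 2 (2.26, adjusted p = 0.10002). Mgp, at 1811, 1062, and 4932 CPM in WT, 1446, 1073, and 2580.3 CPM in Fgf23cKO, 1713 and 3015 CPM in Dmp1KO, and 4759, 1997, and 4659 CPM in Dmp1KO/Fgf23cKO, passed in no comparison of this class. Its log2 fold change in Dmp1KO/Fgf23cKO against WT was 1.10 ± 0.48 (adjusted p = 0.104).

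**Figure D3:**
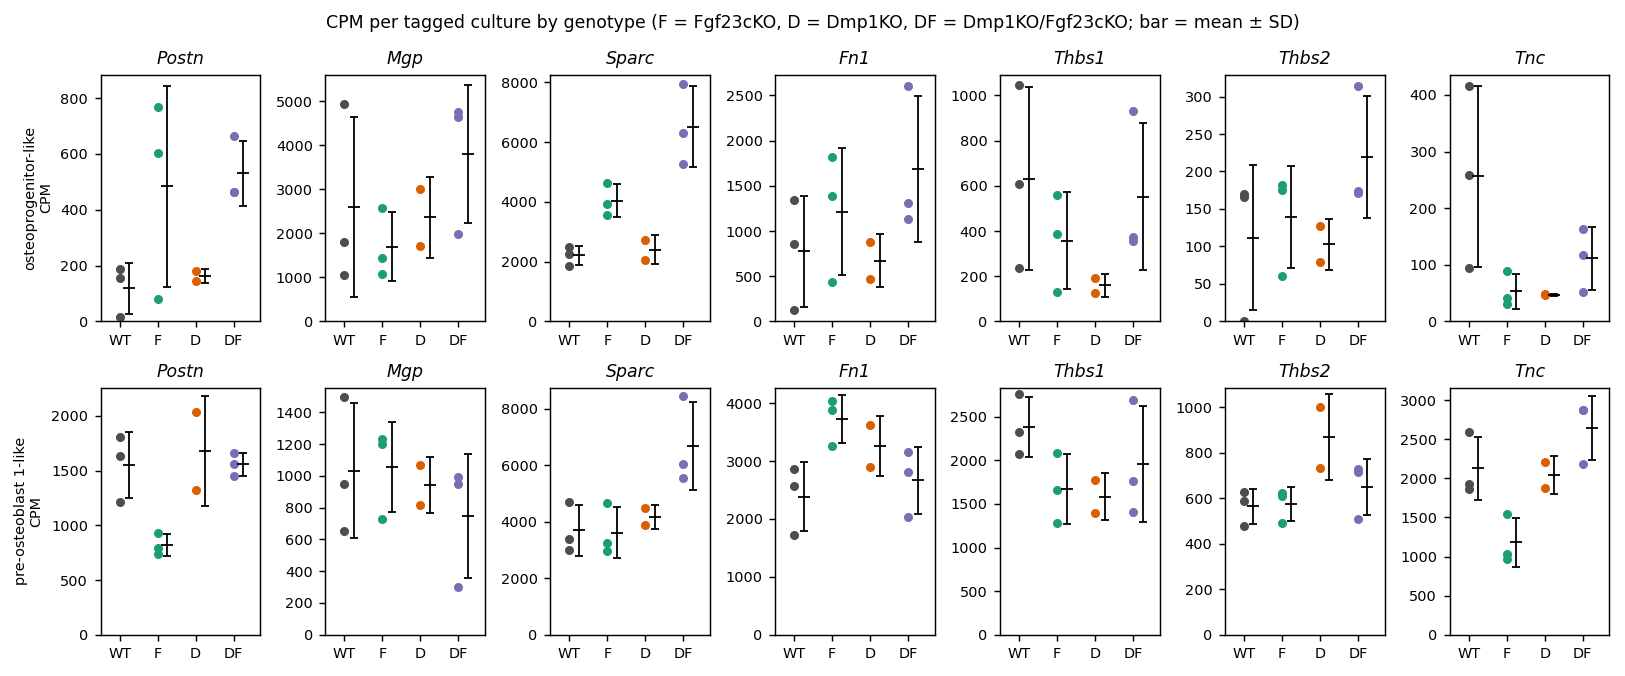
CPM of each gene per tagged culture (points) by genotype in osteoprogenitor-like cells (upper row) and pre-osteoblast 1-like cells (lower row), with bars for the mean ± SD over 2 cultures of Dmp1KO and 3 of each other genotype. Osteoprogenitor-like Sparc reaches 5279 to 7962 CPM in Dmp1KO/Fgf23cKO against 1864 to 2504 CPM in WT, and pre-osteoblast 1-like Postn and Tnc are lowest in Fgf23cKO.

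In pre-osteoblast 1-like cells of Fgf23cKO, Postn and Tnc fell and Fn1 rose compared with WT. There, 3 of 7 genes were called in Fgf23cKO against WT (11.7% of 11665 genes), 1 in Dmp1KO against WT (12.1%), 1 in Dmp1KO/Fgf23cKO against WT (15.8%), and none in Dmp1KO/Fgf23cKO against Dmp1KO (0.952%), where edgeR gave 2 genes an unadjusted p under 0.05 (Sparc and Thbs2) and DESeq2 called 0. Each culture held 14 to 43 of these cells. The summed macrophage markers were 933 to 4894 CPM over all cultures, with at most 1 of 12 markers at 0, against 36314 to 42296 CPM in macrophage-like cells.

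Postn and Tnc fell together in Fgf23cKO pre-osteoblast 1-like cells. Postn was at 932, 736, and 791 CPM in Fgf23cKO, below all other cultures, which had 1803, 1212, and 1630.0 CPM in WT, 2035 and 1324 CPM in Dmp1KO, and 1658, 1561, and 1448 CPM in Dmp1KO/Fgf23cKO. It fell 1.87-fold compared with WT (log2 fold change -0.90 ± 0.18, adjusted p = 0.0133). Tnc was at 1545, 1031, and 973 CPM in Fgf23cKO, again below all others, which had 1867, 2593, and 1926 CPM in WT, 2211 and 1871 CPM in Dmp1KO, and 2876, 2178, and 2879 CPM in Dmp1KO/Fgf23cKO. It fell 1.77-fold (-0.83 ± 0.19, adjusted p = 0.0266). Both kept their call whichever culture was left out and lost it with thinned cells (Postn -0.66 with adjusted p = 0.195, Tnc -0.78 with adjusted p = 0.144), with coarser clusters (-0.56 with adjusted p = 0.126, and -0.40 with adjusted p = 0.315), and without the 5 deepest cells (-0.65 with adjusted p = 0.432, and -0.10 with adjusted p = 0.922). With the untagged cells added, Postn had an adjusted p of 0.290 (-0.51). For Tnc the difference of Dmp1-cre+ from Dmp1-cre- cultures was -0.83 in Dmp1+/+ and 0.34 ± 0.22 in Dmp1-/- cells (the latter not called, adjusted p = 0.516). These values had a difference of 1.17 ± 0.29 (adjusted p = 0.0532), where 6.22% of all genes and no other member were called. This difference was lost without WT culture 2 (1.01, adjusted p = 0.106), Dmp1KO culture 2 (1.27, adjusted p = 0.147), Dmp1KO culture 3 (1.05, adjusted p = 0.203), or Dmp1KO/Fgf23cKO culture 3 (1.11, adjusted p = 0.103), with the replicate block (1.14, adjusted p = 0.103), with thinned cells (1.11, adjusted p = 0.176), with coarser clusters (0.60, adjusted p = 0.283), and without the 5 deepest cells (0.47, adjusted p = 0.692).

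Fn1 and Sparc rose in pre-osteoblast 1-like cells, each in a different genotype. Fn1 was at 2855, 1723, and 2576 CPM in WT and at 3251, 3887, and 4037 CPM in Fgf23cKO, without overlap, a 1.58-fold rise (0.66 ± 0.21, adjusted p = 0.0772). The call was lost without any of WT cultures 2 and 3, Fgf23cKO cultures 2 and 3, Dmp1KO cultures 2 and 3, or Dmp1KO/Fgf23cKO culture 1 (adjusted p from 0.102 to 0.215), with the replicate block (0.67, adjusted p = 0.1196), and with thinned cells (0.48, adjusted p = 0.295), and the value was near 0 without the 5 deepest cells. Sparc was at 2987, 3402, and 4702 CPM in WT and at 8453, 6038, and 5549 CPM in Dmp1KO/Fgf23cKO, without overlap, and rose 1.76-fold (0.82 ± 0.23, adjusted p = 0.0411). Its call was lost without WT culture 1 (0.67, adjusted p = 0.140), WT culture 2 (0.75, adjusted p = 0.120), or Dmp1KO/Fgf23cKO culture 1 (0.60, adjusted p = 0.149), and with coarser clusters the sign turned (-0.082). In Fgf23cKO, Sparc was at 4657, 3231, and 2968 CPM, a log2 difference from WT of -0.02 ± 0.23 (adjusted p = 0.983).

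Thbs2 rose in Dmp1KO pre-osteoblast 1-like cells. It was at 1002 and 734 CPM there and at 626, 480.0, and 586 CPM in WT, a 1.53-fold rise (0.62 ± 0.20, adjusted p = 0.0811) that was lost without any culture of either group (adjusted p from 0.113 to 0.491) or without Dmp1KO/Fgf23cKO culture 2 (adjusted p = 0.101), with the replicate block (0.61, adjusted p = 0.145), and with thinned cells (0.83, adjusted p = 0.162). Mgp and Thbs1 passed in no comparison. Mgp ranged from 298 CPM in Dmp1KO/Fgf23cKO culture 3 to 1495 CPM in WT culture 3. Thbs1 ranged from 1284 to 2758 CPM, with log2 fold changes from WT of -0.48 in Fgf23cKO (adjusted p = 0.247) and -0.58 in Dmp1KO (adjusted p = 0.217).

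In osteoblast/osteocyte-like cells WT could be compared with Dmp1KO/Fgf23cKO alone, since 1 Fgf23cKO culture and no Dmp1KO culture held 10 such cells. Of 7 genes, 3 were called (13.6% of 8583 genes). Thbs1 was at 1646, 2139.7, and 1853 CPM in WT and at 1386, 880.2, and 908 CPM in Dmp1KO/Fgf23cKO, without overlap, and fell 1.94-fold (-0.96 ± 0.19, adjusted p = 0.0129). The Fgf23cKO culture had 579.5 CPM. The Thbs1 call was kept whichever culture was left out and lost with thinned cells (-0.62, adjusted p = 0.153) and when sums of as few as 3 cells were admitted (-0.96, adjusted p = 0.120).

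Tnc moved the other way in this class. It was at 737, 497, and 648 CPM in WT and at 1130.3, 811, and 2295 CPM in Dmp1KO/Fgf23cKO, without overlap, and rose 2.09-fold (1.06 ± 0.32, adjusted p = 0.0642). The 1 Fgf23cKO culture had 1389 CPM. Fn1 was at 916, 859, and 643 CPM in WT and at 731, 498, and 464 CPM in Dmp1KO/Fgf23cKO, with overlap, and fell 1.54-fold (-0.63 ± 0.19, adjusted p = 0.0659). The Tnc call was lost without any WT culture (adjusted p from 0.145 to 0.193) or without Dmp1KO/Fgf23cKO culture 3 (0.50, adjusted p = 0.127). It was also lost with DESeq2 (1.06, adjusted p = 0.229) and with sums of at least 3 cells (1.07, adjusted p = 0.101), and the value was 0.48 (adjusted p = 0.158) with clusters made without the matricellular genes, 0.49 (adjusted p = 0.132) with a filter on genes and mitochondrial UMIs per cell, 0.57 (adjusted p = 0.196) with thinned cells, and 0.67 (adjusted p = 0.157) without the 5 deepest cells. The Fn1 call was lost without WT culture 1 or 2 or Dmp1KO/Fgf23cKO culture 2 or 3 (adjusted p from 0.15996 to 0.213), and with plain library totals, the untagged cells, sums of at least 3 cells, and each of the last 4 alternatives named for Tnc (-0.63 to -0.37, adjusted p from 0.104 to 0.475).

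Sparc, the most bone-like of these genes, was nearly level in osteoblast/osteocyte-like cells. It was at 14920.2, 17092, and 17449.8 CPM in WT, 21808 CPM in the Fgf23cKO culture, and 15428, 19982, and 16891 CPM in Dmp1KO/Fgf23cKO, and the difference of the last from WT was -0.04 ± 0.15 on the log2 scale (adjusted p = 0.923). Postn (119 to 345 CPM in WT, 168 to 349 CPM in Dmp1KO/Fgf23cKO), Thbs2 (46.6 to 89.2 and 54.4 to 97.1 CPM), and Mgp (18.1 to 36.3 and 15.2 to 40.5 CPM) overlapped between these genotypes and were not called. In bulk sums like these, fewer expressing cells and less RNA per cell cannot be told apart.

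**Figure D4:**
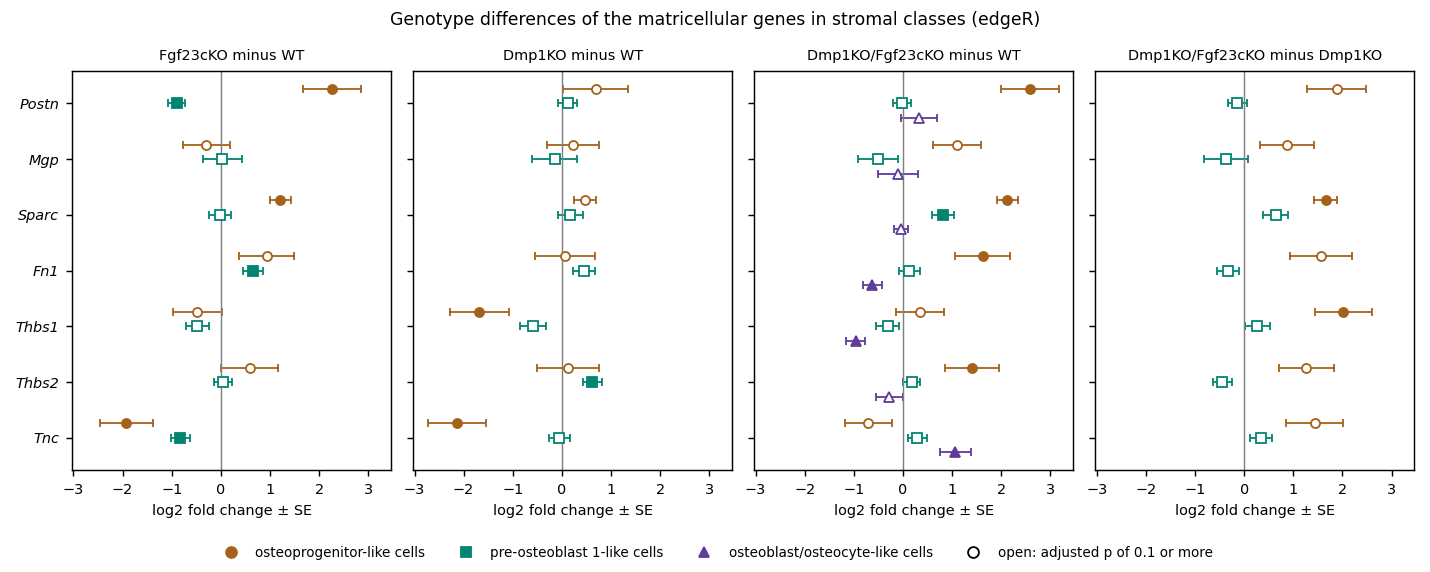
Log2 fold changes ± SE (edgeR) of the 7 genes in 3 stromal classes, 1 panel per comparison. Filled symbols are differences called at an adjusted p under 0.1 and open symbols are not; Sparc in osteoprogenitor-like cells reaches 2.12 in Dmp1KO/Fgf23cKO against WT, where the osteoblast/osteocyte-like value is -0.04.

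Whether a genotype effect differed between classes was tested with the culture as a block. Between pre-osteoblast 1-like and osteoprogenitor-like cells, 2 of 7 genes were called for Fgf23cKO against WT (3.13% of 7982 genes), 5 for Dmp1KO/Fgf23cKO against WT (16.3%), none for Dmp1KO against WT (2.14%), and none for Dmp1KO/Fgf23cKO against Dmp1KO (0.839%). In these last comparisons edgeR gave 1 and 6 members an unadjusted p under 0.05, and DESeq2 called 1 and 0. All 7 called differences had the lower effect in pre-osteoblast 1-like cells. For Postn the effect there minus that in osteoprogenitor-like cells was -3.13 ± 0.59 on the log2 scale in Fgf23cKO (adjusted p = 0.0238) and -2.91 ± 0.57 in Dmp1KO/Fgf23cKO (adjusted p = 0.00173). Thus Postn rose in Fgf23cKO osteoprogenitor-like cells and fell in the pre-osteoblast 1-like cells of the same cultures. For Sparc it was -1.30 ± 0.27 in Fgf23cKO (adjusted p = 0.0251) and -1.504 ± 0.27 in Dmp1KO/Fgf23cKO (adjusted p = 0.000844). For Mgp, Fn1, and Thbs2 it was -2.09, -1.91, and -1.4999 in Dmp1KO/Fgf23cKO (adjusted p = 0.0188, 0.0322, and 0.0891).

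Both Postn differences kept their call whichever culture was left out, and the Fgf23cKO value was -3.78 without Fgf23cKO culture 2. That Fgf23cKO difference was -0.52 (adjusted p = 0.911) without the 5 deepest cells of each sum and was not called with coarser clusters (-1.49, adjusted p = 0.102) or clusters made without the matricellular genes (-2.96, adjusted p = 0.101). Without the 5 deepest cells the Sparc differences were 0.49 in Fgf23cKO (adjusted p = 0.729) and -0.87 in Dmp1KO/Fgf23cKO (adjusted p = 0.119). The Sparc difference in Fgf23cKO was lost without WT culture 3 (-0.996, adjusted p = 0.136). For Dmp1KO/Fgf23cKO against WT, the Mgp difference moved to -1.35 without Dmp1KO/Fgf23cKO culture 3 and to -2.79 without culture 2. The Fn1 difference was lost without Dmp1KO/Fgf23cKO culture 3 (-1.38, adjusted p = 0.122) and was -2.51 without WT culture 3, and that of Thbs2 was lost without WT culture 1 or 2 or Dmp1KO/Fgf23cKO culture 1 or 3 (adjusted p from 0.116 to 0.232). With cells thinned to 1000 UMIs none of the 7 differences was called, and with plain library totals those of Mgp (-1.25), Fn1 (-1.07), and Thbs2 (-0.67) were not. With clusters made without the matricellular genes, those of Sparc in Fgf23cKO (-1.09, adjusted p = 0.321) and of Mgp (-1.33, adjusted p = 0.284), Fn1 (-1.77, adjusted p = 0.105), and Thbs2 (-1.40, adjusted p = 0.230) in Dmp1KO/Fgf23cKO were not called. With the untagged cells, those of Sparc in Fgf23cKO (-1.04, adjusted p = 0.118) and Mgp (-1.27, adjusted p = 0.1999) were not.

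In droplet data, RNA that is free in the suspension and comes from 1 source keeps its genes in 1 ratio in every cell type, so the levels in macrophage-like cells were set against Col1a1, the bone collagen gene. For each 100 Col1a1 UMIs, WT macrophage-like cells held 40.6 Sparc UMIs (exact 95% interval 36.7 to 45.0) and the osteoblastic classes together held 38.0 (37.6 to 38.4). Postn was at 2.83 (1.98 to 3.92) against 3.09 (2.996 to 3.20), Thbs2 at 1.45 (0.872 to 2.28) against 1.16 (1.10 to 1.23), and Tnc at 3.98 (2.96 to 5.25) against 4.76 (4.64 to 4.88). The ratios of these genes in WT macrophage-like cells were thus close to those of the stromal cells. The Fn1 ratio was 8.49 (6.93 to 10.3) against 5.84 (5.70 to 5.98), and the Mgp ratio was 6.58 (5.23 to 8.19) against 2.64 (2.55 to 2.73). Intervals cover counting error only.

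Thbs1 stood apart in macrophage-like cells. Its ratio was 179 (168 to 192) per 100 Col1a1 UMIs in WT, against 7.60 (7.44 to 7.76) in the osteoblastic classes. It was 35.8 against 8.41 in Fgf23cKO, 626 against 25.4 in Dmp1KO, and 42.1 against 7.78 in Dmp1KO/Fgf23cKO, so that the macrophage-like ratio was above the stromal ratio in all 4 genotypes. After thinning to 1000 UMIs, Thbs1 was found in 7.93% of 3102 WT macrophage-like cells and in 0.858% of 233 WT osteoclast-like cells, and without thinning in 28.6% and 16.7% at median depths of 7122 and 12267 UMIs. Among the clusters with macrophage markers, Thbs1 ranged from 7.44 CPM in the cluster led by Itgax, Efr3b, and Dcstamp to 160 CPM in the cluster led by Slc7a11, Procr, and Cav1. In Dmp1KO, where Col1a1 was low in both, the Fn1 ratio was 177 (156 to 202) in macrophage-like and 53.1 (52.0 to 54.2) in stromal cells.

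**Figure D5:**
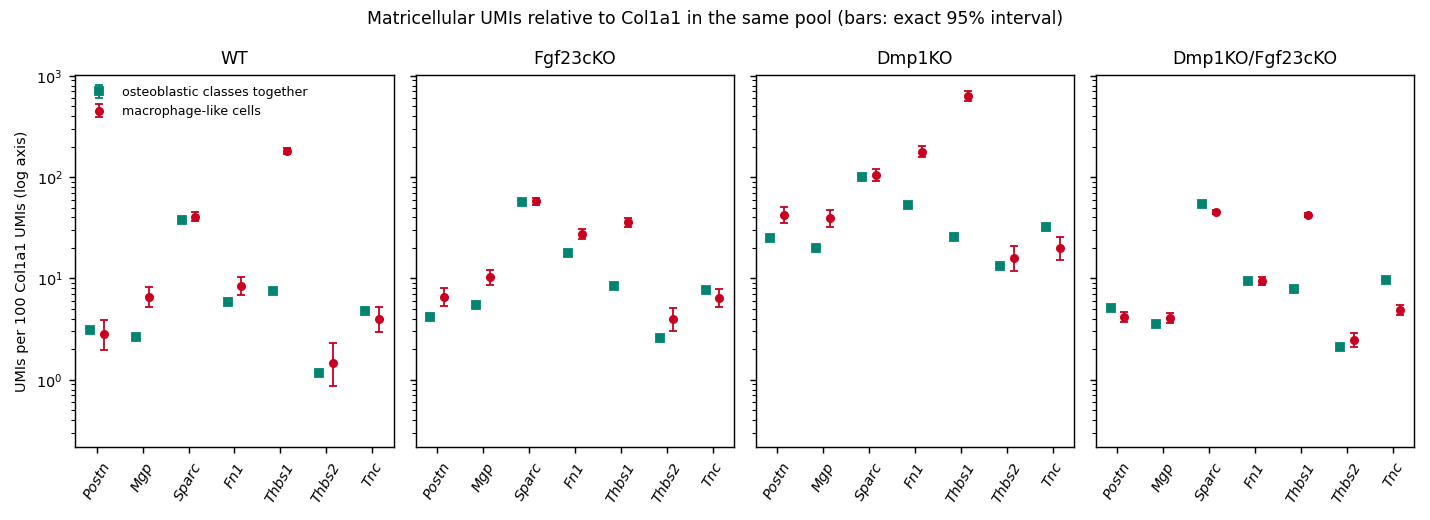
UMIs of each gene per 100 Col1a1 UMIs (log axis) in macrophage-like cells and in the osteoblastic classes together, 1 panel per genotype, with exact 95% intervals for counting error. Thbs1 is far higher in macrophage-like cells (179 against 7.60 in WT), whereas the WT Sparc points nearly coincide.

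All 7 genes differed between Fgf23cKO and WT in macrophage-like cells (6 higher, 1 lower), where 47% of 12785 genes were called. The corresponding counts were 6 of 7 for Dmp1KO against WT (59.4% of all genes), 7 for Dmp1KO/Fgf23cKO against WT (57.6%), 5 for Dmp1KO/Fgf23cKO against Dmp1KO (45.4%), and 6 for the difference of differences (45.7%). Each of these counts lay above the share of all genes. With 7 members and 45.4% to 59.4% of all genes called, they still say little of the matricellular genes, and the cultures of a genotype shared 1 droplet reaction. Thbs1 was the gene that fell. It was at 133, 83.6, and 103 CPM in WT, 25.9, 28.2, and 27.4 CPM in Fgf23cKO, 81.0 and 83.6 CPM in Dmp1KO, and 66.1, 45.4, and 66.0 CPM in Dmp1KO/Fgf23cKO. It fell 3.88-fold in Fgf23cKO (-1.95 ± 0.15, adjusted p = 2.74e-09) and 1.83-fold in Dmp1KO/Fgf23cKO (-0.87 ± 0.12, adjusted p = 4.46e-06), without overlap with WT. In Dmp1KO it differed by -0.27 (adjusted p = 0.0933), a call lost without WT culture 1 (-0.13, adjusted p = 0.381), WT culture 3 (-0.27, adjusted p = 0.159), Fgf23cKO culture 1 (-0.27, adjusted p = 0.102), or either Dmp1KO culture (adjusted p = 0.227 and 0.194), and of the other sign (0.15) with clusters made without the matricellular genes. That call was also lost with the replicate block (-0.18, adjusted p = 0.132), DESeq2, thinned cells, and coarser clusters, and the value was -1.52 when all clusters with macrophage markers were taken. Thbs1 was 1.52-fold lower in Dmp1KO/Fgf23cKO than in Dmp1KO (-0.61 ± 0.13, adjusted p = 0.000701), but higher by 0.49 (adjusted p = 0.0306) when all clusters with macrophage markers were taken.

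Sparc in macrophage-like cells moved with Col1a1. It was at 23.4, 18.4, and 27.5 CPM in WT, 45.1, 42.9, and 43.5 CPM in Fgf23cKO, 12.03 and 15.3 CPM in Dmp1KO, and 65.0, 60.8, and 63.9 CPM in Dmp1KO/Fgf23cKO, and no genotype overlapped another. Mean Col1a1 in the same cells was 55.7 CPM in WT, 76.0 CPM in Fgf23cKO, 13.2 CPM in Dmp1KO, and 139 CPM in Dmp1KO/Fgf23cKO. Sparc rose by 0.91 ± 0.11 in Fgf23cKO (adjusted p = 1.07e-06) and by 1.40 ± 0.10 in Dmp1KO/Fgf23cKO (adjusted p = 1.69e-10) and fell by 0.67 ± 0.13 in Dmp1KO (adjusted p = 0.000197) on the log2 scale. The part of free RNA in these differences was not tested.

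Fn1 did not follow Col1a1. It was at 4.93, 4.45, and 5.05 CPM in WT, 20.1, 21.0, and 21.4 CPM in Fgf23cKO, 27.7 and 19.8 CPM in Dmp1KO, and 12.6, 13.8, and 13.3 CPM in Dmp1KO/Fgf23cKO. It rose 4.27-fold in Fgf23cKO (2.10 ± 0.16, adjusted p = 2.92e-09), 5.14-fold in Dmp1KO (2.36 ± 0.16, adjusted p = 1.01e-10), and 2.65-fold in Dmp1KO/Fgf23cKO (1.40 ± 0.16, adjusted p = 3.82e-07), and was lower in Dmp1KO/Fgf23cKO than in Dmp1KO (-0.96 ± 0.11, adjusted p = 8.43e-07). With thinned cells the Dmp1KO/Fgf23cKO rise was 0.78 and not called (adjusted p = 0.456). Postn, Mgp, Thbs2, and Tnc stayed under 10 CPM in every macrophage-like culture. Their calls against WT were all increases, of 0.53 to 1.997 on the log2 scale, and Tnc in Dmp1KO was not called (0.27, adjusted p = 0.413). The part of free RNA in these increases was not tested. In Dmp1KO, however, more cells of the tagged cultures lay in the other clusters with macrophage markers (1462 and 1194) than in the macrophage-like class (762 and 938). In those other clusters Postn was at 23.5 and 19.9 CPM and Fn1 at 61.6 and 59.0 CPM in the Dmp1KO cultures. With all clusters with macrophage markers taken, the difference of Dmp1KO from WT was 3.57 for Postn (1.87 in the macrophage-like class) and 3.498 for Fn1, and Fn1 in Dmp1KO/Fgf23cKO differed from Dmp1KO by -2.12. Calls for Mgp were lost without WT culture 3 in Dmp1KO (0.28, adjusted p = 0.320) and in Dmp1KO/Fgf23cKO (0.31, adjusted p = 0.242), and without Dmp1KO culture 3 in Dmp1KO (0.35, adjusted p = 0.330), in both with finer clusters (0.19 and 0.33, adjusted p = 0.558 and 0.244), and in Dmp1KO with DESeq2 (adjusted p = 0.125). The Thbs2 difference between Dmp1KO/Fgf23cKO and Dmp1KO (0.59, adjusted p = 0.0888) was lost without Dmp1KO culture 2 (0.36, adjusted p = 0.453) or Dmp1KO/Fgf23cKO culture 1 (0.60, adjusted p = 0.149) or 2 (0.50, adjusted p = 0.222), and with DESeq2, the untagged cells, or clusters made without the matricellular genes (adjusted p from 0.166 to 0.249).

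Genotype effects in macrophage-like cells differed from those in osteoprogenitor-like cells of the same cultures for 3 genes in Fgf23cKO against WT (4.57% of 12058 genes), 2 in Dmp1KO against WT (0.879%), 4 in Dmp1KO/Fgf23cKO against WT (12.4%), and 3 in Dmp1KO/Fgf23cKO against Dmp1KO (2.06%). The Tnc effect in Fgf23cKO was higher in macrophage-like cells by 2.68 ± 0.58 on the log2 scale (adjusted p = 0.000859), and the Thbs1 effect in Dmp1KO/Fgf23cKO against Dmp1KO differed by -2.51 ± 0.44 (adjusted p = 8.51e-06). Thus Tnc fell in Fgf23cKO osteoprogenitor-like cells and rose, from a level of 1.92 to 2.79 CPM in WT, in the macrophage-like cells. In WT, macrophage-like Tnc lay near the stromal ratio to Col1a1, as given above. Mean Col1a1 in macrophage-like cells was 55.7 CPM in WT and 76.0 CPM in Fgf23cKO, and the part of free RNA in the Tnc rise was not tested. The Tnc difference was lost without WT culture 3 (2.05, adjusted p = 0.114), and both were lost with thinned cells (Tnc 2.50 with adjusted p = 0.701, Thbs1 -1.63 with adjusted p = 0.368).

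In sums over whole cultures, the number of stromal cells, their level per cell, and the UMIs of other cells cannot be told apart. Macrophage-like cells held 17.1%, 4.01%, 21.0%, and 9.67% of the Thbs1 UMIs in WT, Fgf23cKO, Dmp1KO, and Dmp1KO/Fgf23cKO. Of 7 genes, 2 were called in Fgf23cKO against WT (45.1% of 15502 genes), 3 in Dmp1KO against WT (64.5%), 3 in Dmp1KO/Fgf23cKO against WT (51.8%), 7 in Dmp1KO/Fgf23cKO against Dmp1KO (62.7%), and 3 for the difference of differences (55.4%). Apart from the 7 in Dmp1KO/Fgf23cKO against Dmp1KO, each count lay below the share of all genes. With such shares of all genes called, the counts say little of the matricellular genes. Sparc was at 144 and 285 CPM in the Dmp1KO cultures, below 555 to 1729 CPM in WT, 675 to 2436 CPM in Fgf23cKO, and 1545 to 2708 CPM in Dmp1KO/Fgf23cKO. It fell by 2.16 on the log2 scale in Dmp1KO against WT (adjusted p = 0.0108), a call lost without Dmp1KO culture 2 (-1.72, adjusted p = 0.101). The Dmp1KO cultures held 2 and 8 osteoblast/osteocyte-like cells, against 23 to 58 in WT. Thbs1, at 65.8 and 106 CPM in Dmp1KO and 217 to 429.8 CPM in WT, fell by 1.68 (adjusted p = 0.00120).

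Fn1 was higher in whole Fgf23cKO cultures, at 546, 491, and 401 CPM against 301, 92.7, and 233 CPM in WT (1.17, adjusted p = 0.0193). Tnc was at 328, 310.0, and 467 CPM in Dmp1KO/Fgf23cKO, 206, 98.2, and 182 CPM in WT, and 57.5 and 78.5 CPM in Dmp1KO. It rose over WT (1.13, adjusted p = 0.0153) and fell in Dmp1KO (-0.95, adjusted p = 0.0445), the latter lost without WT culture 1 (-0.77, adjusted p = 0.124), WT culture 3 (-0.84, adjusted p = 0.113), or Dmp1KO culture 2 (-0.72, adjusted p = 0.248). In Dmp1KO/Fgf23cKO pre-osteoblast 1-like cells, the class that held most Tnc UMIs, the difference from WT was 0.29 ± 0.19 and not called (adjusted p = 0.391). In osteoblast/osteocyte-like cells it was 1.06 ± 0.32 (adjusted p = 0.0642), with the limits given above. Whether the whole-culture rise of Tnc differed from these values was not tested. Thbs2 was called as well in Fgf23cKO (0.76, adjusted p = 0.0525), a call lost without Fgf23cKO culture 1 (0.69, adjusted p = 0.125) or culture 2 (0.74, adjusted p = 0.105), and in Dmp1KO/Fgf23cKO (0.87, adjusted p = 0.0256). Postn was called in Dmp1KO/Fgf23cKO against WT (0.62, adjusted p = 0.0913), but not once any of 7 cultures was left out (WT cultures 2 and 3, both Dmp1KO cultures, and all Dmp1KO/Fgf23cKO cultures, with adjusted p from 0.102 to 0.196). All 7 genes were higher in Dmp1KO/Fgf23cKO than in Dmp1KO, by 0.82 (Fn1) to 2.83 (Sparc). Of these calls, that of Mgp (1.18, adjusted p = 0.0540) was lost without either Dmp1KO culture (0.95 and 1.41, adjusted p = 0.268 and 0.101) or Dmp1KO/Fgf23cKO culture 1 (1.07, adjusted p = 0.117), and that of Fn1 (adjusted p = 0.0847) without WT culture 3, Fgf23cKO culture 2, Dmp1KO culture 2 (0.54, adjusted p = 0.404), or any Dmp1KO/Fgf23cKO culture (0.70 to 0.89). With the untagged samples included, the calls of Thbs2 in Fgf23cKO (adjusted p = 0.236) and of Postn (0.255) and Thbs2 (0.1198) in Dmp1KO/Fgf23cKO against WT were lost, as were those of Mgp, Fn1 (0.085), Thbs1 (0.91), and Thbs2 (0.69) against Dmp1KO (adjusted p from 0.115 to 0.902).

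Genes around the 7 members were counted on lists fixed by function. Of 30 other matricellular genes, 11 could be tested in osteoprogenitor-like cells, where 4 rose and 2 fell in Dmp1KO/Fgf23cKO against WT, 2 rose and 2 fell in Fgf23cKO, 2 fell in Dmp1KO, and 2 rose in Dmp1KO/Fgf23cKO against Dmp1KO. The shares of all genes called in these comparisons were 33.9%, 17.2%, 12.9%, and 4.29%, in the same order. The median log2 fold change of the list in Dmp1KO/Fgf23cKO against WT was 0.20, and that of all genes was -0.12. The called genes included Tnn, the tenascin most tied to osteoblasts (4.60 in Dmp1KO/Fgf23cKO against Dmp1KO, adjusted p = 0.0123), Ccn1, an integrin-binding early response gene (-3.08 in Fgf23cKO, adjusted p = 0.0510), and Ecm1 (1.54 in Dmp1KO/Fgf23cKO against WT, adjusted p = 0.0111). Of 22 tested in pre-osteoblast 1-like cells, 1 rose and 3 fell in Fgf23cKO, 3 rose and 2 fell in Dmp1KO, 4 rose and 2 fell in Dmp1KO/Fgf23cKO against WT, and 1 fell against Dmp1KO, beside 11.7%, 12.1%, 15.8%, and 0.952% of all genes called. Among them were Comp, the thrombospondin of cartilage and tendon (1.65 in Dmp1KO/Fgf23cKO, adjusted p = 0.0777), and the fibulins Fbln1 (-1.84, adjusted p = 0.0255) and Fbln2 (1.29, adjusted p = 0.00106) in Dmp1KO. In osteoblast/osteocyte-like cells, 3 of 13 rose and 1 fell in Dmp1KO/Fgf23cKO (13.6% of all genes called), with Fbln5 at 3.31 (adjusted p = 0.0215) and Ccn2, a TGF-β target, at -1.33 (adjusted p = 0.0259).

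Receptors moved in both directions. Of 29, 19 were tested in osteoprogenitor-like cells, with 3 higher and 2 lower in Fgf23cKO, 1 and 1 in Dmp1KO, 6 and 5 in Dmp1KO/Fgf23cKO against WT, and 3 and 0 against Dmp1KO. Of all genes, 17.2%, 12.9%, 33.9%, and 4.29% were called there. The median of the receptors in Dmp1KO/Fgf23cKO against WT was -0.10 on the log2 scale, against -0.12 for all genes. Cd36, a thrombospondin receptor, fell in Fgf23cKO (-3.59, adjusted p = 0.000791), as did Itga9, the α9 integrin that binds tenascin C (-3.35, adjusted p = 0.0563), and the fibronectin receptor subunit Itga5 fell in Dmp1KO/Fgf23cKO (-2.65, adjusted p = 0.0206). Summed macrophage markers in this class were 5599 to 16018 CPM in WT and 1986 to 8873 CPM in Fgf23cKO. Their part in the fall of Cd36 was not tested. In pre-osteoblast 1-like cells 25 receptors were tested, with 4 higher and 2 lower in Fgf23cKO, 3 and 4 in Dmp1KO, 5 and 1 in Dmp1KO/Fgf23cKO against WT, and 2 and 0 against Dmp1KO (11.7%, 12.1%, 15.8%, and 0.952% of all genes). The β3 integrin gene Itgb3 rose in Fgf23cKO (1.86, adjusted p = 0.0983) and the syndecans Sdc4 (-1.42, adjusted p = 0.00398) and Sdc3 (-1.04, adjusted p = 0.00503) fell in Dmp1KO. In osteoblast/osteocyte-like cells 3 of 21 rose and 2 fell (13.6% of all genes called), the latter being Itgb6 (-5.69, adjusted p = 0.00111) and Cd36.

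Of 18 genes that handle TGF-β and BMP signals, 11 were tested in osteoprogenitor-like cells, with 1 lower in Fgf23cKO, 1 lower in Dmp1KO, 1 higher and 3 lower in Dmp1KO/Fgf23cKO against WT, and none called against Dmp1KO (edgeR, 2 at an unadjusted p under 0.05, and 0 called by DESeq2). The shares of all genes called were 17.2%, 12.9%, 33.9%, and 4.29%. In Dmp1KO/Fgf23cKO against WT the list had a median of -0.33 on the log2 scale and all genes one of -0.12. The coreceptor Tgfbr3 fell most (-4.07 in Dmp1KO/Fgf23cKO, adjusted p = 0.00991). In pre-osteoblast 1-like cells 18 were tested, with 1 higher and 1 lower in Fgf23cKO, 3 lower in Dmp1KO, 3 higher in Dmp1KO/Fgf23cKO against WT, and none called against Dmp1KO (5 at an unadjusted p under 0.05, and 3 called by DESeq2), beside 11.7%, 12.1%, 15.8%, and 0.952% of all genes. The inhibitor Smad7 rose (0.92, adjusted p = 0.00562) and Tgfb2 fell (-0.91, adjusted p = 0.0306) in Fgf23cKO, and Ltbp1, which holds latent TGF-β in the matrix, rose in Dmp1KO/Fgf23cKO (0.98, adjusted p = 0.00543). In osteoblast/osteocyte-like cells 1 of 13 rose and 1 fell (13.6% of all genes called), the latter Tgfb2 (-1.31, adjusted p = 0.00581).

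Of 19 genes of matrix assembly and protein modification, 12 were tested in osteoprogenitor-like cells, with 2 higher and 1 lower in Fgf23cKO, none called in Dmp1KO (edgeR, 1 at an unadjusted p under 0.05, and 1 called by DESeq2), 4 higher in Dmp1KO/Fgf23cKO against WT, and 3 higher against Dmp1KO. For all genes the shares called were 17.2%, 12.9%, 33.9%, and 4.29%, so that 4 of 12 against WT was near the background. The median of the list in that comparison was 0.34 on the log2 scale (all genes, -0.12). The 3 genes higher than in Dmp1KO were Col6a1 (2.83, adjusted p = 0.0174), the collagen cross-linking enzyme gene Lox (1.59, adjusted p = 0.0108), and the small proteoglycan gene Bgn (1.502, adjusted p = 0.0321). The collagen genes Col3a1 (2.44, adjusted p = 0.0355) and Col1a2 (1.98, adjusted p = 0.0554) rose in the same comparison as Sparc and Thbs1. In pre-osteoblast 1-like cells all 19 were tested, with 2 lower in Fgf23cKO, 4 lower in Dmp1KO, 3 higher and 1 lower in Dmp1KO/Fgf23cKO against WT, and 2 higher against Dmp1KO (11.7%, 12.1%, 15.8%, and 0.952% of all genes), while Col3a1 fell in Fgf23cKO (-0.73, adjusted p = 0.0266) beside Postn and Tnc. In osteoblast/osteocyte-like cells 2 of 13 rose and 1 fell (13.6% of all genes called), the last being Ggcx, whose enzyme carboxylates matrix Gla protein (-0.73).

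Over the 29 sums of tagged culture by stromal class, the genes whose log2(CPM + 1) pattern was closest to each member are given as a description, since the sums share cultures, droplet reactions, and cell classes. Postn was closest to Thbs2 (Pearson r = 0.908 across sums), Ercc5, and Fn1 (0.893), so that members ranked among each other's nearest genes out of 6235. Fn1 was closest to Thbs2 (0.904), Postn, and Vcan. Mgp was closest to Mxra7 (0.966), S100b, and S100a6, and Sparc to P3h4 (0.928), Serpinf1, and Ifitm5. The nearest gene was Vasn for Thbs1 (0.900), Ercc5 for Thbs2 (0.941), and Tacc1 for Tnc (0.950). Among the members, Thbs1 and Tnc had r = 0.854, and Mgp and Sparc had r = -0.840.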

How the data were processed

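Per the labels' processing notes, the authors counted UMIs with Cell Ranger 7.0.1 on mm10. The deposited values were raw UMI counts per gene and cell, in 1 matrix per tagged culture and 1 of untagged cells per genotype. Clusters were rebuilt here with Seurat 5.3.0 and sctransform 0.4.2 (3000 variable genes, mitochondrial share regressed out, 30 principal components, resolution 0.8), and no cells or doublets were removed beyond the authors' tag filter. UMIs were summed by culture and class (at least 10 cells), filtered with filterByExpr, scaled by TMM, and tested with edgeR 4.0.16 in R 4.3.3, with all genotypes in 1 fit and a call at an adjusted p under 0.1. Untagged cells entered shares of cells and totals, not tests. Classes were named from marker genes. The members and lists were chosen with earlier results of these data known. Named genes of lists were at most 4 called genes per list and class with the largest fold change. Alternatives included DESeq2 1.42.0, other scaling, cell filters, thinning, other clusters, and each culture left out. Total UMIs, 9518928 to 72482185 per tagged culture and 3560752 to 31799071 per sample of untagged cells, and cells per class limit the precision. Nothing in the labels places the 3 tagged cultures of a genotype in separate animals, so p-values measure the spread between these cultures.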

Additional observations from a re-analysis of the deposited data

Results flagged for a closer look

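The difference of Dmp1-cre+ from Dmp1-cre- cultures changed with the Dmp1 genotype for several matricellular genes. This change is given as the difference between Dmp1KO/Fgf23cKO minus Dmp1KO and Fgf23cKO minus WT on the log2 scale (edgeR, adjusted p in parentheses). For Tnc it was 3.36 (0.0403) in osteoprogenitor-like cells, 1.17 (0.0532) in pre-osteoblast 1-like cells, and 1.65 (0.0164) in whole cultures. In whole cultures it was 2.54 (0.0200) for Sparc and 2.10 (0.00202) for Thbs1, the former lost without Dmp1KO culture 2 (2.10, adjusted p = 0.101). In macrophage-like cells it was -1.69 (9.77e-05) for Postn, -1.02 (0.00661) for Mgp, 1.16 (4.85e-06) for Sparc, -3.05 (2.19e-10) for Fn1, 1.35 (2.07e-05) for Thbs1, and -1.25 (0.0423) for Thbs2. The Thbs2 value was lost without WT culture 1 (-0.97, adjusted p = 0.101) or Dmp1KO culture 3 (-0.87, adjusted p = 0.242). The Thbs1 value fell to 0.35 (adjusted p = 0.335) with clusters made without the matricellular genes and to 0.69 (adjusted p = 0.313) with thinned cells, and the Mgp value to -0.51 (adjusted p = 0.190) with finer clusters. With all clusters with macrophage markers taken, the Postn and Fn1 values were -3.28 and -4.04.

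Effects also differed between cell classes of the same cultures, given as the effect in the class named minus that in osteoprogenitor-like cells. In pre-osteoblast 1-like cells, Fgf23cKO against WT gave -3.13 (0.0238) for Postn and -1.30 (0.0251) for Sparc, and Dmp1KO/Fgf23cKO against WT gave -2.91 (0.00173) for Postn, -2.09 (0.0188) for Mgp, -1.504 (0.000844) for Sparc, -1.91 (0.0322) for Fn1, and -1.4999 (0.0891) for Thbs2. In macrophage-like cells, Fgf23cKO against WT gave 1.02 (0.0910) for Mgp, -1.67 (0.00454) for Thbs1, and 2.68 (0.000859) for Tnc, and Dmp1KO against WT gave -1.43 (0.00862) for Sparc and 1.73 (0.0129) for Fn1. Dmp1KO/Fgf23cKO against WT gave -1.02 (0.0438) for Mgp, -0.97 (0.0175) for Sparc, -1.54 (0.00272) for Thbs1, and 1.87 (0.00801) for Tnc. Dmp1KO/Fgf23cKO against Dmp1KO gave -1.94 (0.00481) for Postn, -2.44 (3.53e-07) for Fn1, and -2.51 (8.51e-06) for Thbs1. The part of free RNA in the macrophage-like values was not tested.

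Of the macrophage-like differences, that of Mgp in Fgf23cKO was 0.08 (adjusted p = 0.997) without WT culture 3 and 1.69 without WT culture 2, and it was lost without Fgf23cKO culture 1 or 2 or any Dmp1KO/Fgf23cKO culture (adjusted p from 0.115 to 0.306). That of Mgp in Dmp1KO/Fgf23cKO was -1.97 without WT culture 3 and -0.25 (adjusted p = 0.806) without WT culture 2, and it was lost without WT culture 1 or Dmp1KO/Fgf23cKO culture 1 or 3 (adjusted p from 0.201 to 0.349). Without WT culture 2 the Fn1 value in Dmp1KO was 2.49, and without Fgf23cKO culture 3 the Tnc value in Fgf23cKO was 3.31. The Tnc call in Fgf23cKO was lost without WT culture 3 (2.05, adjusted p = 0.114). Without WT culture 3, the calls of Sparc (-1.23, adjusted p = 0.164) and Fn1 (0.98, adjusted p = 0.618) in Dmp1KO and of Sparc (-0.77, adjusted p = 0.196) and Tnc (1.24, adjusted p = 0.318) in Dmp1KO/Fgf23cKO were lost. The Fn1 call in Dmp1KO was further lost without WT culture 1 (1.505, adjusted p = 0.218) or Dmp1KO culture 3 (1.69, adjusted p = 0.109), and that of Thbs1 in Fgf23cKO without Fgf23cKO culture 3 (-1.21, adjusted p = 0.1704). The call of Sparc in Dmp1KO/Fgf23cKO was lost without Dmp1KO/Fgf23cKO culture 1 (-0.81, adjusted p = 0.190), as was that of Thbs1 (-1.15, adjusted p = 0.122), and that of Tnc without culture 2 (1.41, adjusted p = 0.141). The Postn call against Dmp1KO was lost without Dmp1KO culture 2 (-1.42, adjusted p = 0.628). With plain library totals, the Sparc difference in Dmp1KO/Fgf23cKO was -0.08 (adjusted p = 0.894), and those of Sparc in Dmp1KO and of Mgp and Thbs1 in Dmp1KO/Fgf23cKO were not called (adjusted p from 0.147 to 0.854). With thinned cells the calls of Mgp, Thbs1, and Tnc in Fgf23cKO, Sparc in Dmp1KO, Mgp, Sparc, and Thbs1 in Dmp1KO/Fgf23cKO, and Postn and Thbs1 against Dmp1KO were lost (adjusted p from 0.368 to 1). Clusters made without the matricellular genes ended those of Thbs1 in Fgf23cKO, Sparc and Fn1 in Dmp1KO, Mgp and Sparc in Dmp1KO/Fgf23cKO, and Postn against Dmp1KO (adjusted p from 0.182 to 0.891). DESeq2 did not call Mgp and Thbs1 in Fgf23cKO, Fn1 in Dmp1KO, Mgp, Sparc, and Thbs1 in Dmp1KO/Fgf23cKO, and Postn against Dmp1KO (adjusted p from 0.121 to 0.508).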

How the results depend on the processing

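In osteoprogenitor-like cells the matricellular genes gave 11 calls over 4 comparisons, against 19 with no filter on low counts, 4 with cells thinned to 1000 UMIs, and 3 without the 5 deepest cells of each sum. The 5 calls in pre-osteoblast 1-like cells became 3 with the replicate block, 10 with no filter, 2 with sums of at least 20 cells, 1 with thinned cells, 11 at resolution 0.4, 3 at an adjusted p under 0.05, and 2 without the 5 deepest cells. The 3 calls in osteoblast/osteocyte-like cells became 0 with sums of at least 3 cells, 0 with thinned cells, and 1 each with a cell filter, clusters made without the matricellular genes, an adjusted p under 0.05, and no deepest cells; resolution 0.4 and sums of at least 20 cells gave no value there. The 25 calls in macrophage-like cells became 10 with thinned cells, and the 15 in whole cultures became 8 with untagged samples. Differences between classes gave 19 calls, and 12 with DESeq2, 6 with thinned cells, and 8 with clusters made without the matricellular genes. Without thinning, the share of cells with a UMI was above that of macrophage-like cells in every stromal class and genotype for 4 of 7 genes.

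Leaving out 1 culture at a time gave 7 to 13 calls in osteoprogenitor-like, 2 to 5 in pre-osteoblast 1-like, 1 to 3 in osteoblast/osteocyte-like, and 22 to 25 in macrophage-like cells, 10 to 19 in whole cultures, and 13 to 24 between classes. With the replicate block, calls were 10 in osteoprogenitor-like, 3 in osteoblast/osteocyte-like, and 24 in macrophage-like cells and 14 in whole cultures. Of same-numbered pairs of cultures, 5 of 15 correlated above 0.1 (-0.56 to 0.38), and of other pairs 15 of 30 did (-0.61 to 0.63). The 2 Dmp1KO cultures mirrored each other in this check, at -0.16 and 0.16 with WT culture 1. With values tied in this way, the check cannot show whether the numbers pair the cultures.

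Signs turned for pre-osteoblast 1-like Sparc in Dmp1KO/Fgf23cKO against WT at resolution 0.4 (-0.082) and Fn1 in Fgf23cKO without the 5 deepest cells (-0.0039), for macrophage-like Thbs1 in Dmp1KO against WT with clusters made without the matricellular genes (0.152) and in Dmp1KO/Fgf23cKO against Dmp1KO with all macrophage-marker clusters (0.490), and for whole-culture Mgp in that comparison with untagged samples (-0.131). They also turned for the class difference of Mgp in macrophage-like cells in Dmp1KO/Fgf23cKO with thinned cells (0.371) and of Sparc in pre-osteoblast 1-like cells in Fgf23cKO without the deepest cells (0.493). The cause was not tested. Plain totals and the removal of deepest cells were added after seeing the data.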
